A study of Mus musculus with 20 samples.

Results

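The transcription factors that carry the output of the circadian clock to other genes were examined in the hearts of mice on a control or an iron-deficient diet. They were chosen by gene name and comprise *Dbp*, *Tef*, *Hlf*, *Nfil3*, *Bhlhe40*, *Bhlhe41* and *Rora*, which are 7 of the 23420 genes in the count file. The samples were hearts of wild-type male C57BL/6 mice aged 9 weeks, with 10 mice on the control diet (titled CD1 to CD10, called control mice) and 10 on the iron-deficient diet (titled ID1 to ID10, called IDA mice). Each diet had been given for 6 weeks from 3 weeks of age. The labels place the iron of the deficient diet below 2 ppm in one field and above 2 ppm in another. The study excluded a mouse of each group for contamination without naming it in its text, so all 20 mice are included. The time of day at which hearts were collected is not given in the sources used here.

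The core clock, built from BMAL1 (*Arntl*) and CLOCK with their PER and CRY repressors, passes its rhythm on through a second layer of transcription factors. DBP, TEF and HLF are the PAR bZIP proteins, which activate genes that hold a D-box, and NFIL3 (E4BP4) represses through the same sites. BHLHE40 (DEC1) and BHLHE41 (DEC2) repress at E-boxes, where BMAL1 and CLOCK act, and DEC1 is also induced by hypoxia through HIF-1. RORA activates at ROR elements, which the REV-ERB proteins (*Nr1d1*, *Nr1d2*) occupy as repressors.

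The promoters of the factors were searched for these elements in the 250 bases before each start site (RefSeq, GRCm38.p6). Of the 7 factors, 6 had a promoter entry, 2 of which belonged to *Tef*, and *Bhlhe40* had no match. Sequences are shown where a clock element was found, in the direction of the gene with the element in capitals. The E-box is CACGTG, which reads the same on both strands and occurs in 6.02% of the 32851 promoters of this length. The ROR element was searched as TAGGTCA or TGGGTCA on both strands (5.38% of promoters), and in *Nfil3* it lies on the opposite strand.

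Tef, first promoter, E-box 127 bases before the start: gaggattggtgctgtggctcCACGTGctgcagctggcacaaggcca
Tef, second promoter, E-box 138 bases before the start: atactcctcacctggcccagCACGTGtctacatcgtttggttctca
Bhlhe41, E-box 153 bases before the start: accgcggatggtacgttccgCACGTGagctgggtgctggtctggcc
Nfil3, ROR element 12 bases before the start: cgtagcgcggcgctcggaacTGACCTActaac

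The elements lie at chr15:81802546-81802551 and chr15:81811276-81811281 on the plus strand for *Tef*, at chr6:145865568-145865573 for *Bhlhe41* and at chr13:52981045-52981051 for *Nfil3*, both of these genes being on the minus strand. No D-box (TTATGTAA or TTACGTAA, 0.931% of promoters) and no E′-box (CACGTT, 3.85%) was found in these windows. The short core of the hypoxia response element (ACGTG or GCGTG, both strands, 38.6% of promoters) was found in each promoter but that of *Nfil3*. ACGTG also lies within every CACGTG. A match describes letters and not a bound site.

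All 7 factors passed the expression filter of at least 1 CPM (read pairs scaled to the size of the library) in at least 10 mice. The diets were compared by the quasi-likelihood test of edgeR, with adjusted p-values (Benjamini-Hochberg) over all 13590 genes tested. *Rora*, *Hlf*, *Bhlhe41* and *Tef* were lower in IDA hearts and *Nfil3* was higher, which makes 5 of 7 factors with an adjusted p below 0.05. *Dbp* and *Bhlhe40* did not pass. The share of all tested genes that passed was 67.5%, with 35% higher and 32.5% lower, so the number of factors called is near the background. Against a minimum change of 1.2-fold, *Rora* and *Hlf* were called lower and *Nfil3* higher, where 18.4% of tested genes were called lower and 10.7% higher. The median log2 fold change was -0.40 over the factors and 0.023 over all tested genes. In bulk hearts, fewer cells of a type and less RNA per cell cannot be told apart.

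Facts of the whole series bear on these values. Between 6682177 and 8960688 read pairs were counted per mouse. Fold changes fell with the exonic length of genes: of 10 classes of equal size, the class with the shortest exons had a median of 0.34 on the log2 scale and the class with the longest -0.53. Within single mice, the median log2 deviation of the longest class minus that of the shortest lay between 0.057 and 0.68 in control mice and between -0.83 and -0.061 in IDA mice, so the diets did not overlap in this measure. The diet differences of the 7 factors and the counts of the gene lists are therefore also given after a smooth trend on exonic length was removed from each mouse (the length correction). After it 55% of genes were called, with 31.5% higher and 23.5% lower, and 4 of the 7 factors. Erythroid markers were higher in 4 of the 6 tested, with a summed level of 228 to 313 CPM in control and 295 to 975 CPM in IDA hearts. Cardiomyocyte markers were present in every heart, with *Myh6* at 1366 ± 124 CPM in control and 1428 ± 127 CPM in IDA mice (SD, n = 10). The part of the length trend and of the erythroid markers in the results below was not tested, apart from the fits named.

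**Figure D1:**
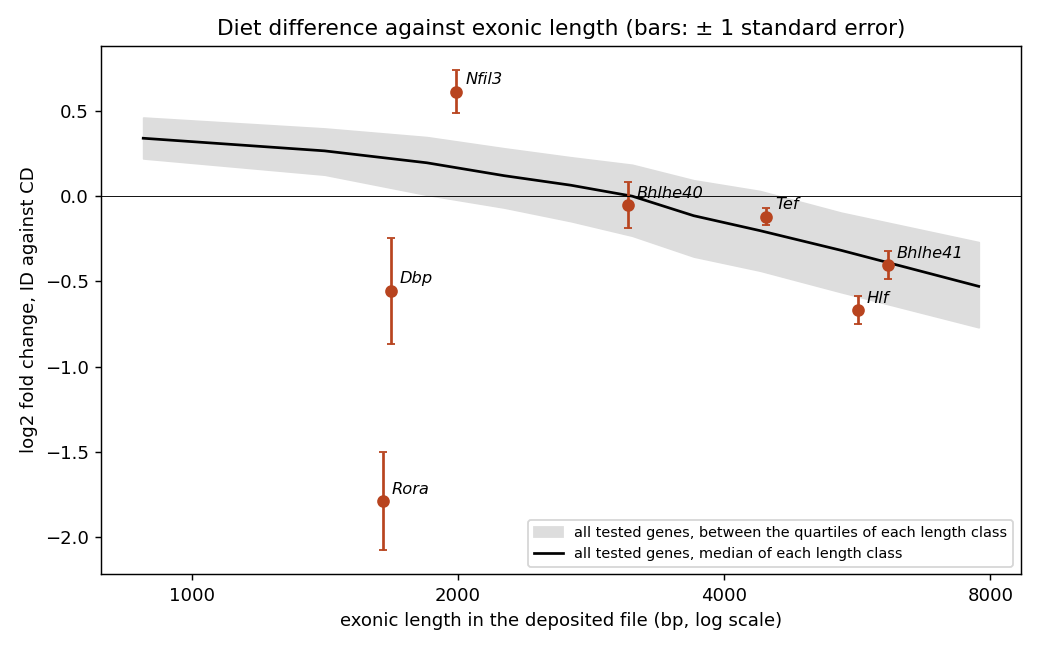
Log2 fold change of IDA against control hearts (vertical axis) by exonic length in the deposited file (horizontal axis, log scale), with the 7 factors as points with their standard errors. The line and the shaded band give the median and the span between the quartiles of all tested genes in 10 classes of length, with medians from 0.34 in the shortest to -0.53 in the longest class. *Bhlhe41*, *Tef* and *Bhlhe40* lie within the band, *Nfil3* lies above it, and *Rora*, *Dbp* and *Hlf* lie below it.

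*Rora*, the activator at ROR elements, had the largest difference of the 7 factors. It lies on chromosome 9 of mm10 (68653802 to 69379028, plus strand). In control mice CD1 to CD5 its normalised read counts were 7.50, 2.09, 8.82, 13.5 and 8.59 CPM. CD6 to CD10 had 4.83, 16.2, 11.3, 14.2 and 12.6 CPM. The IDA mice lay between 1.00 and 6.08 CPM, with a median of 2.72. All 10 IDA mice were below the control mean, but the ranges overlapped through CD2 and CD6, and only 2 IDA mice were below the lowest control mouse. The mean was 9.96 ± 4.42 CPM in control and 2.91 ± 1.32 CPM in IDA hearts (SD, n = 10), and the log2 fold change was -1.79 (standard error 0.29, edgeR adjusted p = 1.14e-05). Among the 13590 tested genes this was the 36th lowest. The counts behind it were small, from 14 to 132 read pairs in control and from 8 to 39 in IDA mice. The exons of *Rora* in the deposited file add up to 1644 bp and cover 12.6% of the bases that GENCODE lists as exonic, while its longest GENCODE transcript has 10878 bp. Of the 1644 bp, 82 overlap GENCODE exons of *Gm15511* on the opposite strand. With the length correction on the 1644 bp the log2 fold change was -1.98 (adjusted p = 1.1e-05). With the correction on the longest transcript it was -1.10 (adjusted p = 0.000466), so the direction was the same and the size depended on the length assumed.

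*Rorb*, a relative of *Rora* known for its role in the nervous system, was at 2.34 ± 0.80 CPM in control and 1.52 ± 0.65 CPM in IDA mice (log2 fold change -0.62, edgeR adjusted p = 0.0358). After the length correction its value was -0.027 (adjusted p = 0.932).

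*Hlf* separated the diets in every mouse. The gene lies on chromosome 11 (90336535 to 90390917, minus strand) and encodes the PAR bZIP protein first described in leukemia. CD1 to CD5 had 68.8, 70.3, 81.1, 80.8 and 74.5 CPM, and CD6 to CD10 had 61.1, 68.7, 89.4, 92.7 and 76.7 CPM. ID1 to ID5 had 55.2, 51.6, 56.3, 35.4 and 48.6 CPM, and ID6 to ID10 had 44.6, 53.9, 48.2, 42.2 and 45.5 CPM. All 10 IDA mice were below all 10 control mice, which held in this direction for 6.28% of tested genes. With the length trend removed the diets overlapped, at 5.87 to 6.26 log2 CPM in control and 5.40 to 6.14 in IDA mice, with ID1 and ID3 within the control range. *Hlf* stood at 0.630 of the control level (log2 fold change -0.67, standard error 0.081, edgeR adjusted p = 5.32e-07). It is also a long gene, with 5665 bp of exons, and the median of genes in its length class was -0.32. With the length correction it was at -0.31 (adjusted p = 0.000743), and with correction for length and GC content at -0.19 (adjusted p = 0.0331).

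*Tef* was the most abundant of the factors in control hearts and its difference was small. It lies on chromosome 15 (81802673 to 81826863, plus strand) and encodes thyrotroph embryonic factor. Control mice lay between 199.5 and 232 CPM with a median of 220.2, and IDA mice between 159 and 230.5 CPM with a median of 203. The ranges overlapped and 2 IDA mice, ID3 and ID5, were below the lowest control mouse. The difference of -0.12 on the log2 scale (standard error 0.052, edgeR adjusted p = 0.0459) was near the threshold. Leaving out 1 mouse at a time ended the call in 12 of 20 fits, and the length correction turned the value to 0.12 (adjusted p = 0.114).

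*Hlf* and *Tef* are close relatives, and the longest run of bases their transcripts share is ctgaaggagaaccagatc, 18 bases long, which is shorter than a read. Their ratio within a mouse does not depend on the library size. Per kilobase of exon, *Hlf* stood at a median of 0.276 of *Tef* in control mice (0.219 to 0.330) and at 0.188 in IDA mice (0.137 to 0.257). The mean log2 ratio was -0.54 in IDA relative to control mice (p = 0.00012 by a two-sided permutation test, adjusted p = 0.00072 over 6 tests). With the length trend removed the difference was -0.43 (two-sided permutation test, p = 0.00063). In CD1 to CD5 against ID1 to ID5 it was -0.46 (two-sided exact permutation test, p = 0.0159, adjusted p = 0.0318). In CD6 to CD10 against ID6 to ID10 it was -0.63, with no overlap between the diets (two-sided exact permutation test, p = 0.00794, the smallest that 5 against 5 mice allow, adjusted p = 0.0238). *Hlf* was thus lower relative to *Tef* in IDA hearts in both sets of mice.

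**Figure D2:**
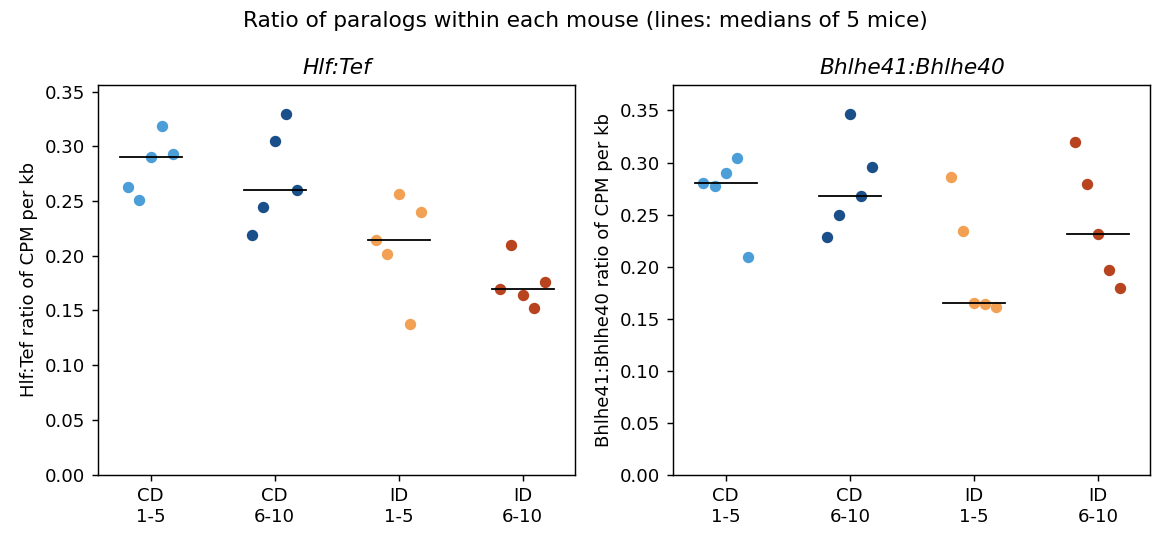
Ratio of *Hlf* to *Tef* (left) and of *Bhlhe41* to *Bhlhe40* (right) in CPM per kilobase of exon, one point per mouse, with lines at the medians of 5 mice. CD and ID are the control and iron-deficient diets, and 1-5 and 6-10 the numbers in the titles. For *Hlf* to *Tef* the IDA mice lie between 0.137 and 0.257 and the control mice between 0.219 and 0.330.

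*Dbp*, the PAR bZIP gene with the steepest daily rhythm in many tissues, varied more among control mice than any other factor. It lies on chromosome 7 (45705247 to 45710203, plus strand). CD1 to CD5 had 13.5, 13.9, 11.3, 6.82 and 10.3 CPM. CD6 to CD10 had 67.9, 24.9, 30.8, 26.0 and 29.6 CPM. The control mice thus lay in 2 sets that did not overlap, divided between the numbers 5 and 6 of the titles. ID1 to ID5 had 17.6, 12.9, 11.1, 12.9 and 9.75 CPM, and ID6 to ID10 had 16.0, 17.8, 18.7, 29.5 and 15.6 CPM. These IDA sets overlapped, and all IDA mice were within the range of the control mice. The coefficient of variation was 75.9% in control and 34.3% in IDA mice. Means were 23.5 ± 17.8 CPM and 16.2 ± 5.55 CPM (SD, n = 10), and the difference of -0.55 on the log2 scale was within the spread between mice (standard error 0.31, edgeR adjusted p = 0.119). Without CD6 it was -0.22. The length correction gave -0.72 (adjusted p = 0.0498).

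The columns of the count file carry library numbers, whose meaning is not given, and these also run in 2 blocks. The higher block of numbers holds CD1 to CD5 and ID1 to ID3, and the lower block holds ID4, ID5, CD6 to CD10 and ID6 to ID10. The division at title number 5 was made after the *Dbp* values were seen, so the difference of *Dbp* between the control sets, 1.70 on the log2 scale in favour of CD6 to CD10, is a description. *Nfil3* and *Bhlhe41* varied with *Dbp* in control mice, so p-values of the factors over this division are descriptions as well. The diet differences of *Dbp* in the subsets rest on the same *Dbp* values and are a description too. They were 0.20 on the log2 scale within numbers 1 to 5 and -0.87 within numbers 6 to 10. By library number they were 0.30 within the higher block and -1.07 within the lower block. The subsets also changed which other factors were called. *Rora* and *Hlf* were the factors called lower in numbers 1 to 5 (2 of 7, against 25.4% of tested genes, with 46.7% called in either direction). The same 2 were called lower in the higher block (24.1% of tested genes lower, 43.5% in either direction). In numbers 6 to 10 and in the lower block, 63.5% and 58.9% of tested genes were called in either direction. With the length correction, *Rora* alone was called lower in numbers 1 to 5 (1 factor, against 18.7% of tested genes), and *Nfil3* and *Tef* were called higher in numbers 6 to 10 (31.4% of tested genes).

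*Dbp* shares exonic bases with another gene. Its last 539 bp of exon, 32.1% of its exonic length, overlap exons of *Sphk2*, a sphingosine kinase gene on the opposite strand, and counting did not use strand, so reads from these bases cannot be told apart between the genes. How many such reads were counted for either gene was not tested. *Sphk2* was higher in IDA hearts, with 82.8 ± 4.68 CPM in control and 102 ± 9.03 CPM in IDA mice (log2 fold change 0.29, edgeR adjusted p = 1.92e-05). Between the control sets *Sphk2* had means of 80.6 CPM in CD1 to CD5 and 85.0 CPM in CD6 to CD10.

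**Figure D3:**
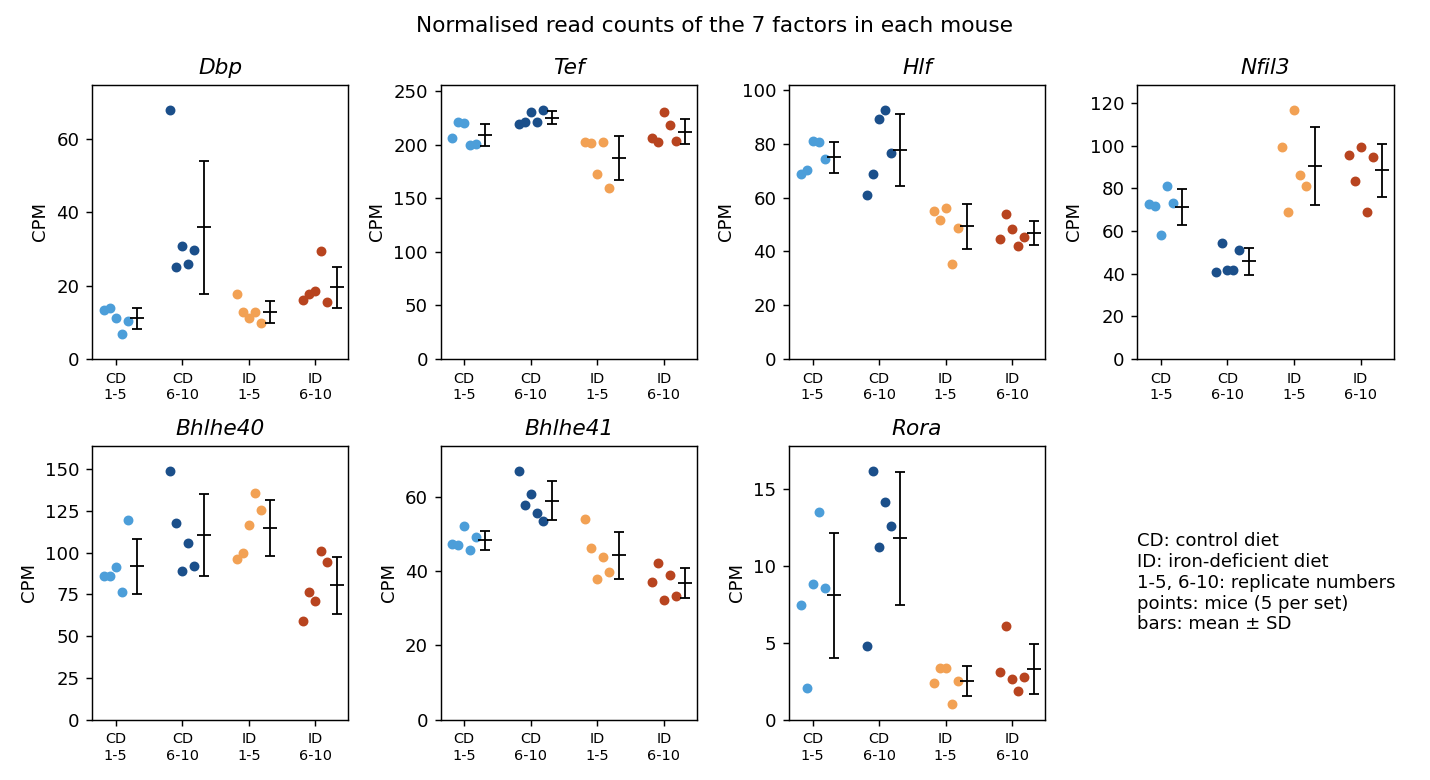
Normalised read counts (CPM, vertical axis from 0) of the 7 factors in each mouse, split by diet and by the title numbers 1-5 and 6-10, with the mean ± SD of 5 mice beside each set. *Dbp* lies between 6.82 and 13.9 CPM in CD1 to CD5 and between 24.9 and 67.9 CPM in CD6 to CD10, while *Hlf* lies at 61.1 CPM or above in every control mouse and at 56.3 CPM or below in every IDA mouse.

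*Nfil3*, the repressor at D-boxes, was the factor that rose. The gene lies on chromosome 13 (52967209 to 52981039, minus strand). CD1 to CD5 had 72.6, 71.8, 58.0, 81.2 and 73.0 CPM, and CD6 to CD10 had 40.6, 54.3, 41.5, 41.9 and 51.2 CPM. ID1 to ID5 had 99.5, 69.0, 117, 86.1 and 81.3 CPM, and ID6 to ID10 had 95.6, 83.5, 99.6, 68.7 and 94.6 CPM. Each of the 10 IDA mice exceeded the mean of the control mice, and 8 were above the highest control mouse. The level rose 1.53-fold (log2 fold change 0.61, standard error 0.13, edgeR adjusted p = 0.000189), and the length correction gave 0.49 (adjusted p = 0.00213). The control sets did not overlap in *Nfil3* either, but in the order opposite to *Dbp*, with CD6 to CD10 lower by -0.63 (edgeR adjusted p = 0.0210, where 0.493% of tested genes were called between the control sets). The IDA sets overlapped. Within numbers 1 to 5 the diet difference was 0.34 (adjusted p = 0.0488) and within numbers 6 to 10 it was 0.95 (adjusted p = 2.19e-05). These 2 effects differed by 0.60, which did not pass the test (adjusted p = 0.0591, with 4.72% of tested genes called in this test), and with the length correction by 0.63 (adjusted p = 0.0335, 9.85% of tested genes called). In numbers 1 to 5 with the length correction, the diet difference of *Nfil3* was 0.20 (adjusted p = 0.233).

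The balance of the PAR bZIP activators to their repressor was described by the sum of *Dbp*, *Tef* and *Hlf* over *Nfil3*, each per kilobase of exon. It was 1.55 to 2.42 in CD1 to CD5 and 2.81 to 4.92 in CD6 to CD10. It was 0.942 to 1.79 in ID1 to ID5 and 1.33 to 2.14 in ID6 to ID10. The control mice CD6 to CD10 stood above all other mice, and the other 3 sets overlapped. This separation is a description, since the division was made after the *Dbp* values were seen. *Dbp* is part of the sum, and *Nfil3* varied with it in control mice. Over all 10 mice of a diet the median was 2.61 in control and 1.35 in IDA mice, which was not tested. The sum was not corrected for the length trend.

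**Figure D4:**
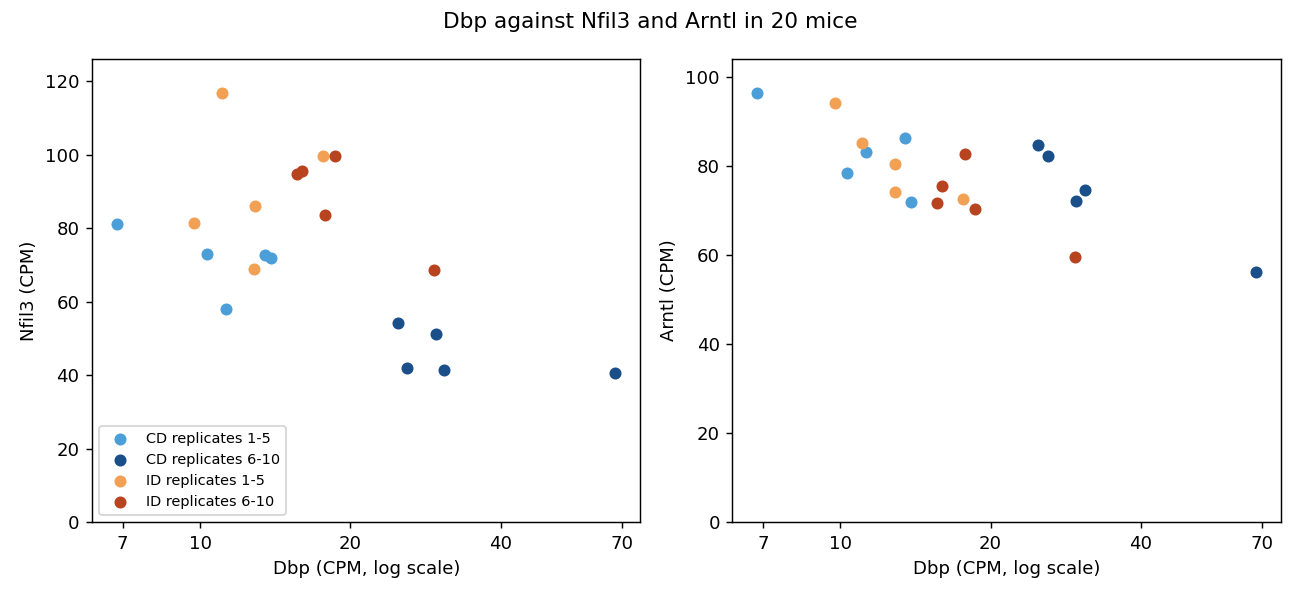
*Nfil3* (left) and *Arntl* (right) in CPM against *Dbp* in CPM (horizontal axis, log scale), one point per mouse, coloured by diet and title numbers. CD6 to CD10 lie apart at 24.9 CPM of *Dbp* or above and 54.3 CPM of *Nfil3* or below. In the right panel *Arntl* is at 56.1 CPM in the control mouse and 59.5 CPM in the IDA mouse with the highest *Dbp*.

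Genes of the core clock were read beside *Dbp*. *Arntl* did not differ between the diets beyond the spread, with 78.6 ± 10.9 CPM in control and 76.7 ± 9.49 CPM in IDA hearts (log2 fold change -0.035, edgeR adjusted p = 0.709). *Nr1d1*, looked at after its values were seen, divided both diets at the same title number. It was at 163 ± 17.0 CPM in CD1 to CD5 and 264 ± 26.8 CPM in CD6 to CD10 (SD, n = 5). In ID1 to ID5 it was at 139 ± 24.2 CPM and in ID6 to ID10 at 249.3 ± 22.3 CPM. No mouse numbered 1 to 5 reached the lowest mouse numbered 6 to 10 of its diet. ID4 and ID5, whose library numbers lie in the lower block with those of CD6 to CD10 and ID6 to ID10, had 122 and 143 CPM of *Nr1d1* and stood with ID1 to ID3. Between the diets as a whole *Nr1d1* had a log2 fold change of -0.14 (edgeR adjusted p = 0.481). The other REV-ERB gene, *Nr1d2*, was lower in IDA hearts, with 167 ± 32.4 CPM in control and 92.6 ± 25.2 CPM in IDA mice (SD, n = 10, log2 fold change -0.85, edgeR adjusted p = 1.75e-05). Its length-corrected value was -0.60 (adjusted p = 0.000743). Its control sets did not overlap either, with 119 to 149 CPM in CD1 to CD5 and 183 to 204 CPM in CD6 to CD10, whereas the IDA sets overlapped. What distinguished the mice numbered 1 to 5 from those numbered 6 to 10 is not given in the sources used here.

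Relations between factors across mice were computed in each diet (56 relations, 21 pairs of factors and 7 pairs with *Arntl*, 100000 permutations). Since the control mice fell into 2 separate sets in *Dbp* and *Nfil3*, no value over the 10 control mice is given for the 3 control pairs whose adjusted p was below 0.05 (*Dbp* with *Nfil3*, *Dbp* with *Bhlhe41* and *Nfil3* with *Bhlhe41*), and sets of 5 mice are too small to test them. In IDA mice, *Dbp* fell with *Arntl* (n = 10, Pearson's r = -0.88, permutation p = 0.00193, adjusted p = 0.0270; Spearman's rho = -0.76, permutation p = 0.0148, adjusted p = 0.139). When the 2 mice with *Dbp* farthest from its median were left out, r was -0.56 (adjusted p = 0.526), so the relation rests on those mice. For the same reason as above no value over the 10 control mice is given for this pair, and the relation was not compared between the diets. Within sets of 5 mice, r was -0.74 in CD1 to CD5 and -0.97 in CD6 to CD10. It was -0.89 in ID1 to ID5 and -0.81 in ID6 to ID10. These values describe 5 mice each and were not tested. In the IDA mice of the lower block of library numbers (n = 7), r of *Dbp* with *Arntl* was -0.86 (exact permutation p = 0.0284, not adjusted). There rho was -0.68 (exact permutation p = 0.110). These mice include ID5 and ID9, the 2 left out above, so the value cannot show whether the relation holds without them. *Tef* with *Arntl* in IDA mice had r = -0.82 (n = 10, permutation p = 0.00451, adjusted p = 0.0505) and rho = -0.90 (permutation p = 0.00088, adjusted p = 0.0164), and r was -0.60 without the 2 farthest mice. Within the lower block (n = 7), which holds ID5 but not ID3 of the 2 farthest mice, this r was -0.82 (exact permutation p = 0.0464, not adjusted).

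Of the DEC repressors, *Bhlhe41* was called lower in IDA hearts and *Bhlhe40* was not. *Bhlhe40* lies on chromosome 6 (108660629 to 108666925, plus strand). CD1 to CD5 had 85.8, 86.1, 91.3, 76.3 and 119.8 CPM, and CD6 to CD10 had 149, 117, 88.9, 106 and 91.8 CPM. ID1 to ID5 had 96.1, 99.9, 116, 136 and 126 CPM, and ID6 to ID10 had 59.1, 76.7, 70.8, 101 and 94.3 CPM. The diets overlapped, with a log2 fold change of -0.052 over all mice (95% confidence interval -0.33 to 0.22, edgeR adjusted p = 0.744). Within numbers 1 to 5 the diet difference was 0.31 (adjusted p = 0.0582), and within numbers 6 to 10 it was -0.46 (adjusted p = 0.0230). Corrected for length these were 0.35 (adjusted p = 0.0400) and -0.36 (adjusted p = 0.0699), so which of the 2 sets passed depended on the correction. The 2 effects differed by -0.78 (standard error 0.22, edgeR adjusted p = 0.0435). By library numbers, the effect in the higher block minus that in the lower block was 0.40 (adjusted p = 0.912). Of its exons, 118 bp overlap *0610040F04Rik* on the opposite strand, which was too low to be tested.

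*Bhlhe41* lies on the same chromosome (145858243 to 145865420, minus strand). Of its exons, 855 bp (14.0%) overlap *Gm43909* on the opposite strand in GENCODE, an overlap absent from the deposited file. Reads from these bases cannot be told apart between the genes, and how many were counted was not tested. Control mice lay between 45.7 and 67.0 CPM with a median of 52.8, and IDA mice between 32.2 and 54.0 CPM with a median of 39.4. Only ID1 and ID2 were within the control range and 8 IDA mice were below it. The difference, -0.40 on the log2 scale (standard error 0.085, edgeR adjusted p = 0.000237), was near the median of genes in its length class, -0.32. After the length correction it was -0.011 (adjusted p = 0.937), within its standard error of 0.099. Within numbers 1 to 5 the difference was -0.13 (adjusted p = 0.253) and within numbers 6 to 10 it was -0.68 (adjusted p = 2.52e-05). The length-corrected differences were 0.24 (adjusted p = 0.171) and -0.26 (adjusted p = 0.0293). These effects differed by -0.56 (standard error 0.13, edgeR adjusted p = 0.0238), and with the length correction by -0.51 (adjusted p = 0.0653). By library numbers they differed by 0.55 (higher minus lower block, adjusted p = 0.168).

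The ratio of *Bhlhe41* to *Bhlhe40* per kilobase within a mouse had a median of 0.279 in control and 0.213 in IDA hearts. The mean log2 ratio differed by -0.34 (two-sided permutation test, p = 0.0227, adjusted p = 0.0341 over 6 tests). With the length trend removed the difference was -0.016 (two-sided permutation test, p = 0.908). Within numbers 1 to 5 and 6 to 10 it was -0.46 and -0.22 (two-sided exact permutation tests, p = 0.0714 and p = 0.270).

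**Figure D5:**
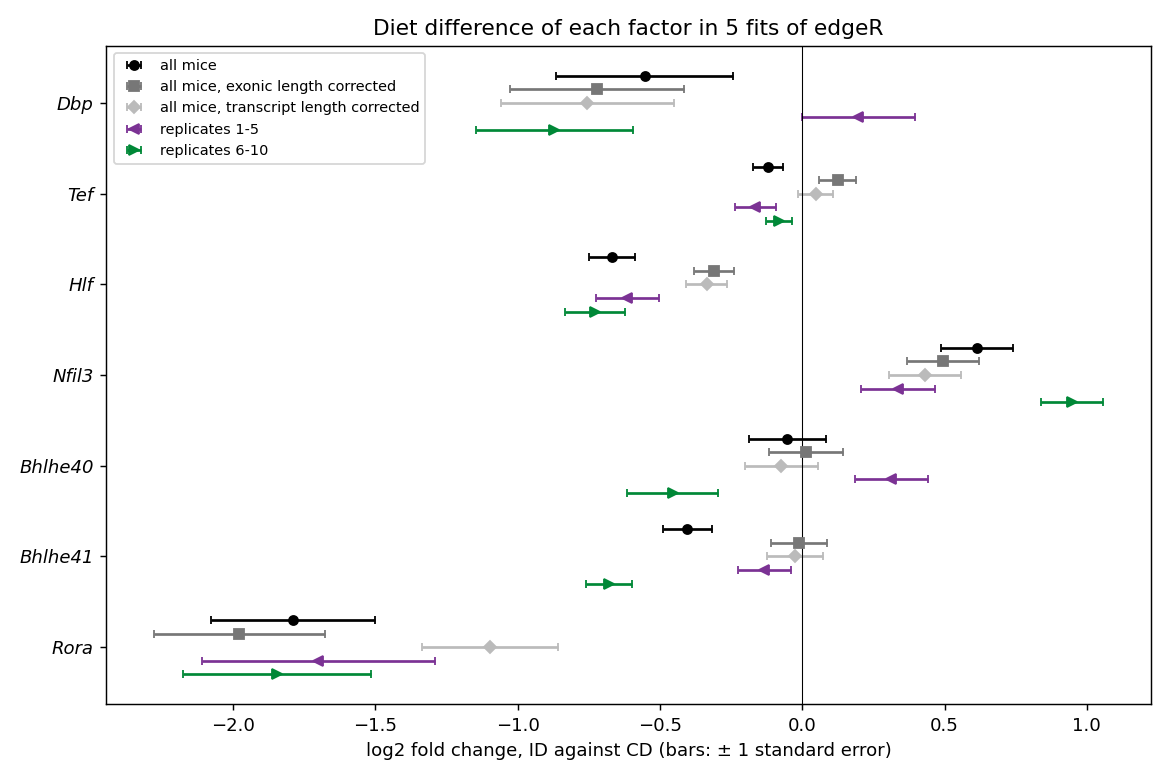
Log2 fold change of IDA against control hearts (horizontal axis, bars ± 1 standard error) for each factor in 5 fits: all mice, 2 corrections for length, and the mice numbered 1-5 and 6-10. *Rora* and *Hlf* lie below 0 and *Nfil3* above 0 in all 5, whereas *Dbp* and *Bhlhe40* lie on opposite sides of 0 in numbers 1-5 and 6-10.

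Levels of the factors were compared per kilobase of exon. In control hearts the order of mean levels was *Tef* (48.7 CPM per kilobase), *Bhlhe40* (32.5), *Nfil3* (29.4), *Dbp* (14.0), *Hlf* (13.5), *Bhlhe41* (8.75) and *Rora* (6.06), and each neighbouring pair overlapped in its range over mice. In IDA hearts *Nfil3* (44.92 CPM per kilobase) and *Tef* (44.86) were level and *Bhlhe40* followed (31.3), with no overlap between *Bhlhe40* and the next factor, *Dbp* (9.63). *Hlf* (8.50) and *Bhlhe41* (6.62) overlapped their neighbours above, and *Rora* (1.77) lay below all of them without overlap. These levels were not corrected for the length trend. The level of *Rora* rests on the short exonic length in the deposited file.

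Genes whose levels varied most like a factor were sought over the 20 mice, after the mean of each diet was removed (Pearson's r of log2 CPM, 10604 genes with a mean of at least 10 CPM, all from the same libraries). *Dbp* was most like *Tspan15* (0.85), *Acap3* (0.83) and *Nrde2* (0.80), and least like *Frmd5* (-0.81). *Nfil3* was most like *Spata5* (0.82), *Ppp1r3c* (0.77), a glycogen-targeting subunit of protein phosphatase, and *E2f4* (0.75), and least like *Map3k12* (-0.81). *Tef* was most like *Bend5* (0.85), *Sphk2* (0.82) and *Pcif1* (0.82), and least like *Elovl5*, a fatty acid elongase (-0.90). *Hlf* was most like *Nkap* (0.84), *Aldh1l2* (0.81) and *Mtr* (0.80), the latter 2 being enzymes of folate metabolism, and least like *Lmcd1* (-0.82). *Bhlhe40* was most like *Unc5b* (0.85), *Icam1* (0.84), an adhesion molecule of endothelium, and *Plscr3* (0.83), and least like *Tfcp2* (-0.82). The values for *Bhlhe41* were lower, with *Elk3* (0.72), *Sybu* (0.72) and *Parp16* (0.71) most like it and *Cdkn1a* least (-0.76). *Rora* was most like *D830005E20Rik* (0.90), *Rbm41* (0.90) and *Fgd4* (0.89), and least like *Cers2* (-0.85). Since these values could also rest on the division between numbers 1 to 5 and 6 to 10, r was computed with the means of the 4 sets removed. It was then between 0.57 and 0.63 for the 3 genes most like *Dbp* and between 0.53 and 0.57 for those most like *Nfil3*. For *Bhlhe41* it was 0.26 with *Elk3*, 0.51 with *Sybu* and 0.57 with *Parp16*. For the genes most like *Tef*, *Hlf*, *Bhlhe40* and *Rora* it was between 0.69 and 0.92. These values describe 20 libraries and were not tested.

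Other genes of the clock and its surroundings were counted by lists. Of 14 tested core clock genes, 6 fell and 0 rose. The count that rose was also 0 at an unadjusted p below 0.05 in edgeR, 0 in DESeq2 and 0 in limma. *Per2* and *Per3*, repressors of BMAL1 and CLOCK, had log2 fold changes of -1.27 and -1.25 (edgeR adjusted p = 4.76e-07 and 1.32e-07), and after the length correction -0.91 and -0.88. With that correction 2 core clock genes rose, *Cry2* and *Csnk1d* (log2 fold changes 0.29 and 0.20), and the count that fell was again 6. Of 20 genes known as rhythmic outputs in the heart, 5 rose and 7 fell, with *Angptl4* (0.85), an inhibitor of lipoprotein lipase, and *Tspan4* (0.28) highest and *Klf9* (-0.82) and *Pik3r1* (-0.78) lowest in log2 fold change. After correction for length 3 rose and 4 fell, and *Tspan4* was at 0.081 and no longer called. Among 11 relatives of the factors, 7 rose and 2 fell, from *Helt* (0.92) and *Cebpd* (0.78) to *Hey2* (-0.49) and *Rorb* (-0.62), and with the length correction 7 rose and *Hey2* alone fell.

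Hypoxia and glucocorticoids both act on factors of this group, so lists of their targets were read as well. Of 22 hypoxia and HIF targets, 11 rose and 4 fell. *Ankrd37* (0.99) and *Slc16a3* (0.94), the lactate exporter MCT4, rose most in log2 fold change, and *Pfkfb3* (-0.72) and *Hk2* (-0.17), both of glycolysis, fell most. Of the length-corrected values 13 rose and 1 fell, and *Hk2* was higher (0.17, adjusted p = 0.000368). *Bhlhe40*, itself a HIF-1 target, was not among the called genes. Of 14 glucocorticoid-responsive genes, 6 rose and 2 fell, with *Lcn2* (0.86) and *Mt2* (0.59) highest and *Zbtb16* (-1.10) and *Klf9* (-0.82) lowest. Corrected for length, 1 rose and 2 fell, and *Lcn2* (0.55), *Mt2* (0.24) and *Zbtb16* (-0.78) were no longer called. The counts of these lists and of those in the paragraph above stand beside 35% of all tested genes that rose and 32.5% that fell. With the length correction the shares were 31.5% and 23.5%.

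Markers of cell types in the heart were counted in the same way. Beside them, 35% of all tested genes rose and 32.5% fell, or 31.5% and 23.5% with the length correction. In cardiomyocytes 3 of 8 rose and 1 fell, in endothelium 4 of 8 rose and 3 fell, in fibroblasts 1 of 8 rose and 1 fell, and in smooth muscle and pericytes 2 of 8 rose and 3 fell. Of 7 tested leukocyte markers 4 rose and 2 fell, and of 5 adipocyte markers 0 passed in edgeR, also at an unadjusted p below 0.05, with 0 in DESeq2 and 0 in limma. Once the length trend was removed, 2 markers were higher and 4 lower in cardiomyocytes, and 3 higher and 2 lower both in fibroblasts and in smooth muscle and pericytes. In endothelium 4 were higher, in leukocytes 3 and in erythroid cells 5, and the 3 endothelial and 2 leukocyte markers that had fallen were no longer called lower. *Ryr2*, the calcium release channel of the cardiomyocyte, changed sides, from -0.51 (edgeR adjusted p = 4.46e-05) to 0.28 with the correction (adjusted p = 0.00022). Among the erythroid markers *Slc4a1*, the anion exchanger of the red cell membrane, had a log2 fold change of 4.04. With the mean of the erythroid markers as a covariate, the log2 fold change was -1.71 for *Rora*, -0.59 for *Hlf*, 0.85 for *Nfil3* and -0.57 for *Bhlhe41*, each still with an edgeR adjusted p below the threshold of 0.05, and -0.078 for *Tef*, which did not pass (adjusted p = 0.434).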

How the data were processed

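Poly(A)-selected RNA of 20 hearts was sequenced in read pairs. The authors used STAR for alignment to mm10 and samtools to remove PCR duplicates, and deposited read-pair counts per gene name from featureCounts (version 1.4.5-p1), unnormalised and without strand. Samples were grouped by diet from their labels, all columns of samples were used, and separate titles were taken as separate mice.

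In R 4.3.3, counts were normalised by TMM and tested with edgeR 4.0.16 (quasi-likelihood, diet as the factor), with DESeq2 1.42.0 and limma 3.58.1 (voom) as alternatives. Genes with at least 1 CPM in 10 mice were kept (13590 kept, 9830 excluded). CPM are TMM-normalised, and log2 CPM used a prior count of 2. The length correction removed a loess curve (span 0.5, degree 1) of each mouse's deviations on log2 exonic length. GC content and transcript length came from GENCODE for 94.0% of tested genes. Totals of 6682177 to 8960688 read pairs per mouse set the precision, and SDs are between mice. Permutation tests were two-sided with 100000 resamples, or exact for 5 against 5.

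The factors and lists were chosen with earlier results of these data known. Genes named were the 7 factors, the 2 highest and 2 lowest called genes of each list, the 3 genes most like a factor and the 1 least like it, and genes overlapping a factor. Some of the genes this rule selects are not reported here. *Arntl*, *Clock*, *Nr1d1*, *Nr1d2*, *Myh6*, *Cry2* and *Csnk1d* were named outside the rule, with their values known. Alternatives were other scalings, filters, tests, covariates, corrections, blocks and subsets of mice. The edgeR diet comparison, its interaction with the division by title number and the length correction were checked on simulated data with 200 changed genes. The diet comparison recovered 85% of 1.5-fold and 98% of 2-fold changes, with 5.67% of calls false. The interaction recovered 47% and 85%, with 2.94% of calls false. With a length trend added, 98.1% of calls were false without the correction and 5.82% with it. That trend had a fixed size not taken from these mice.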

Additional observations from a re-analysis of the deposited data

Results flagged for a closer look

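In *Dbp*, control mouse CD6 stood apart from the other 9 control mice, at 67.9 CPM against 30.8 CPM in the next mouse, a gap that makes up 0.607 of the whole range of the group. IDA mouse ID9 stood apart in the same gene, at 29.5 CPM against 18.7 CPM in the next, a gap of 0.548 of the range. In *Rora*, ID7 had 6.08 CPM and the next IDA mouse 3.40 CPM, a gap of 0.528 of the range. Each gap is above the share that Dixon's test allows for 10 mice, which chance exceeds in about 1 of 20 groups, and 14 groups were looked at.

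The diet difference of *Bhlhe40* in the mice numbered 6 to 10 was lower by -0.78 than in those numbered 1 to 5 (edgeR adjusted p = 0.0435 for the interaction). That of *Bhlhe41* was lower by -0.56 (edgeR adjusted p = 0.0238). The division of the mice was chosen after the *Dbp* values were seen, so these p-values are a description. By library numbers the differences did not pass (higher minus lower block, edgeR adjusted p = 0.912 for *Bhlhe40* and 0.168 for *Bhlhe41*).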

How the results depend on the processing

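The 7 log2 fold changes, the counts of called factors and the relations with *Arntl* were recomputed under other settings. In all of those that gave a value for the diet comparison, *Rora* stayed lower and past the threshold, and so did *Hlf* and *Nfil3* in their directions, except in the mice numbered 1 to 5 with the length correction (*Hlf* -0.29, *Nfil3* 0.20). A filter of at least 5 CPM in 10 mice left no value for *Rora*. The other factors depended on the setting. The length correction gave -0.72 for *Dbp*, 0.12 for *Tef*, 0.013 for *Bhlhe40* and -0.011 for *Bhlhe41*. Length and GC together gave -0.99, 0.028, 0.026 and 0.057 in the same order. The correction on the longest transcript gave -0.75 for *Dbp*, 0.047 for *Tef* and -0.024 for *Bhlhe41*. *Tef* was no longer called with upper quartile factors (-0.092), library totals alone (-0.067), a minimum change of 1.2-fold (-0.12), p below 0.01 in edgeR and DESeq2 (-0.12), no filter (-0.12) or the erythroid covariate (-0.078). *Bhlhe40* turned positive with library totals alone (0.0053) and with the library total as a covariate (0.16), and *Bhlhe41* was not called at a minimum of 1.2-fold (-0.40), where 2 factors were called lower. The cause of these changes was not tested.

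The settings by title or library number and the correction on the longest transcript were chosen after the data were seen. In numbers 1 to 5, *Dbp* was at 0.20, *Tef* at -0.16, *Bhlhe40* at 0.31 and *Bhlhe41* at -0.13, with 2 factors called lower. With the length correction these were 0.014, 0.050, 0.35 and 0.24, with 1 called lower. In numbers 6 to 10, *Dbp* was at -0.87, *Tef* at -0.082 and *Bhlhe40* at -0.46. With the length correction *Dbp* was at -1.02 and *Tef* at 0.19, with 2 factors called higher. The lower block of library numbers gave -1.07 for *Dbp* and -0.15 for *Tef*. The higher block gave 0.30 for *Dbp*, -0.14 for *Tef*, 0.17 for *Bhlhe40* and -0.086 for *Bhlhe41*, with 2 factors called lower. With these blocks of numbers as a covariate *Dbp* was called (-0.58).

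The deviations of same-numbered mice of the 2 diets correlated above 0.1 in 3 of 10 pairs (-0.28 to 0.26), and 4 of 20 mice correlated best with their own number. Such values cannot show whether the title numbers pair mice. With same-numbered mice as a block (the replicate block), *Dbp* was at -0.34. The replicate block with the length correction gave -0.52 for *Dbp*, 0.12 for *Tef*, 0.0071 for *Bhlhe40* and -0.017 for *Bhlhe41*.

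Leaving out 1 mouse at a time, or 1 of each diet in 100 pairs, *Tef* ranged from -0.14 to -0.087 and from -0.16 to -0.077, and lost its call in 12 of 20 and 58 of 100 fits. *Bhlhe40* ranged from -0.12 to 0.026 and from -0.16 to 0.087. *Dbp* ranged from -0.69 to -0.22 and from -0.80 to -0.15, with a call in 5 of the 100 pairs. The relation of *Dbp* with *Arntl* in IDA mice fell to r = -0.56 without the 2 farthest mice. That of *Tef* passed with the length trend removed (-0.82) or DESeq2 size factors (-0.86). Among the 56 relations, 4 passed as reported, 0 without the 2 farthest mice and 7 with the length trend removed. Counts as low as 8 read pairs in a mouse limit *Rora*.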
